A study of Mus musculus with 4 samples.

Results

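Stat5a and Stat5b, 2 of the 31053 genes counted, encode a pair of closely related transcription factors. Their RNA was followed across the cell states of control mouse bone marrow, in blood progenitors and in stromal cells, with the knockout libraries read in the same way as the background. The members were fixed by name. Cell states were set by other genes, namely Dntt, Pf4, Mpo and Hlf for lineage, a list of S-phase genes and a list of mitosis genes for the cell cycle, and the number of RNA molecules counted per cell for depth.

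STAT5A and STAT5B sit in the cytoplasm until a cytokine receptor with a bound Janus kinase phosphorylates them. They then pair, enter the nucleus and bind DNA near genes for survival, proliferation and feedback control. In blood-forming cells they act downstream of the receptors for erythropoietin, interleukin 3, GM-CSF and interleukin 7. Among their targets are Cish and Socs2, which encode inhibitors of the same pathway, and Pim1, a survival kinase.

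There were 4 single-cell libraries, 1 per group, so no difference between groups or cell states has a replicate check and no test was made. Mice of both genotypes carried Vav1-Cre, a Cre recombinase driven by a promoter of blood cells. The control genotype was Vav1-Cre/+STAT5ab+/+, with intact Stat5 genes, and the STAT5 KO genotype was Vav1-Cre/+STAT5abfl/fl. KLS cells, the fraction of bone marrow that lacks lineage markers and carries c-Kit and Sca-1, came from mice of 8 to 12 weeks. Stromal cells, called MSC, came from digested bone of mice of 6 to 8 weeks and were sorted as negative for CD45 and CD71, negative or low for Ter119, and positive for Sca-1 and CD140a. The labels give 4 mice for the KLS sort; whether they were pooled, and the number of mice for the stromal sort, is not given in the sources used here. Because of that promoter, the stromal cells of the STAT5 KO genotype are not cells that this Cre is meant to recombine.

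After filtering, 3085 KLS control, 6726 KLS STAT5 KO, 577 MSC control and 374 MSC STAT5 KO cells were kept. Their median numbers of unique molecular identifiers (UMIs, each tagging 1 captured RNA molecule) were 15136, 10085, 2732 and 2496. Between 200 and 393 barcodes of a library also occurred in another library, and the 10 to 369 cells per library that held more UMIs elsewhere were left out. Before filtering, barcodes with more UMIs elsewhere carried 20 of 3765 Stat5a and 18 of 3349 Stat5b UMIs in KLS control. The numbers were 11 of 571 and 17 of 387 in KLS STAT5 KO, 6 of 77 and 3 of 97 in MSC control, and 1 of 71 and 0 of 56 in MSC STAT5 KO. The sort labels were checked on marker genes. Kit stood at 210 counts per 1000000 UMIs (CPM) in KLS control and at 8.05 CPM in the MSC control cells counted as stromal, those with under 10% hemoglobin UMIs and no UMI of Ptprc, the CD45 gene. Pdgfra, which encodes CD140a, was at 0 in KLS control and at 308 CPM in stromal control cells. All intervals below are exact 95% intervals that cover counting error only.

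Both genes lie on mouse chromosome 11 (GRCm38). Stat5a (ENSMUSG00000004043) spans chr11:100859351-100885169 on the plus strand, and Stat5b (ENSMUSG00000020919) spans chr11:100780731-100850724 on the minus strand. Their 5′ ends face each other across 8627 bases that hold no other annotated gene. The longest coding transcripts have 20 exons in Stat5a and 19 in Stat5b. The 3′ end of Stat5a overlaps Stat3, which runs on the other strand, by 72 bases, and whether counting used strand is not given in the sources used here. The libraries read the 3′ ends of transcripts, so the similarity of the genes matters there. Of all 30-base words of the Stat5a transcript, 22.0% also occur in the Stat5b transcript. None of these shared words lies in the last 1000 bases of Stat5a, and the nearest lies 1483 bases from its 3′ end. The last 120 coding bases of each gene, read from the GENCODE transcripts, show where the genes part. They are given 5′ to 3′ with the stop codon in capitals, from chr11:100883877-100883996 (plus strand) for Stat5a and chr11:100783096-100783215 (minus strand) for Stat5b.
Stat5a: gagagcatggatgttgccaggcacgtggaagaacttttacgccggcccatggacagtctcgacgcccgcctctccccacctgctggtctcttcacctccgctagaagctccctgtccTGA
Stat5b: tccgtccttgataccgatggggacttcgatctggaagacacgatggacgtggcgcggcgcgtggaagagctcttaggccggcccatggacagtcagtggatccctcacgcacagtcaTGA
The longest run that both stretches share is 18 bases, and the 3′ untranslated regions that follow, 1173 and 2365 bases long, share no run over 15 bases.

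Over all KLS control cells, Stat5a stood at 68.5 CPM (66.3 to 70.8, 3504 UMIs) and Stat5b at 60.8 CPM (58.7 to 63.0, 3111 UMIs). The levels of the 2 genes are not ranked against each other, since a 3′ count depends on how well each transcript end is captured. At least 1 UMI of either gene was seen in 79.3% of the cells. After each cell was thinned to 4000 UMIs, which 3061 cells reached, 25.4% had a Stat5a UMI (23.8% to 27.0%) and 22.7% a Stat5b UMI (21.2% to 24.2%). In KLS STAT5 KO the same shares were 2.33% and 1.79%.

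Lineage states were set on the thinned counts. A cell entered the Dntt gate with 2 or more UMIs of Dntt, the lymphoid DNA polymerase TdT. It entered the Pf4 gate with 2 or more UMIs of Pf4, a platelet chemokine, the Mpo gate with 5 or more UMIs of the myeloid enzyme myeloperoxidase, and the Hlf gate with 1 or more UMI of Hlf, a transcription factor of stem cells. Gates may overlap: 413 cells passed 2 of them and 8 cells passed 3. The gates held 749, 63, 328 and 1687 KLS control cells, and 663 cells passed none. Against these no-gate cells, 11 of 12 measured lymphoid-primed markers were at least 1.5-fold higher in the Dntt gate, 11 of 11 megakaryocyte markers in the Pf4 gate and 10 of 11 myeloid markers in the Mpo gate. The Hlf gate, with 55.1% of the cells, had 5 of 15 stem markers that high and is a broad class. The Pf4 gate had 10 of 16 stem markers that high as well, and the Mpo gate 5 of 6 mast and basophil markers (385 against 194 CPM in sum) and 5 of 12 lymphoid-primed markers.

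Stat5a differed between lineage states more than Stat5b did. Stat5a stood at 44.0 CPM in the Dntt gate (40.4 to 47.9), 58.2 CPM in the Mpo gate (52.7 to 64.1), 74.8 CPM in the Hlf gate (71.5 to 78.2), 76.5 CPM in no-gate cells (71.7 to 81.7) and 82.2 CPM in the Pf4 gate (67.1 to 99.7). In this order the intervals of the Dntt gate, the Mpo gate and the Hlf gate did not meet, while those of the Hlf gate, no-gate cells and the Pf4 gate overlapped. Stat5b stood at 55.1 CPM in the Dntt gate (51.1 to 59.5), 55.8 CPM in the Mpo gate (50.4 to 61.6), 59.4 CPM in no-gate cells (55.1 to 63.9), 64.7 CPM in the Pf4 gate (51.4 to 80.4) and 65.4 CPM in the Hlf gate (62.4 to 68.6). Each Stat5b interval met that of the next state in the order, while those of the Dntt and Mpo gates ended below that of the Hlf gate.

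**Figure D1:**
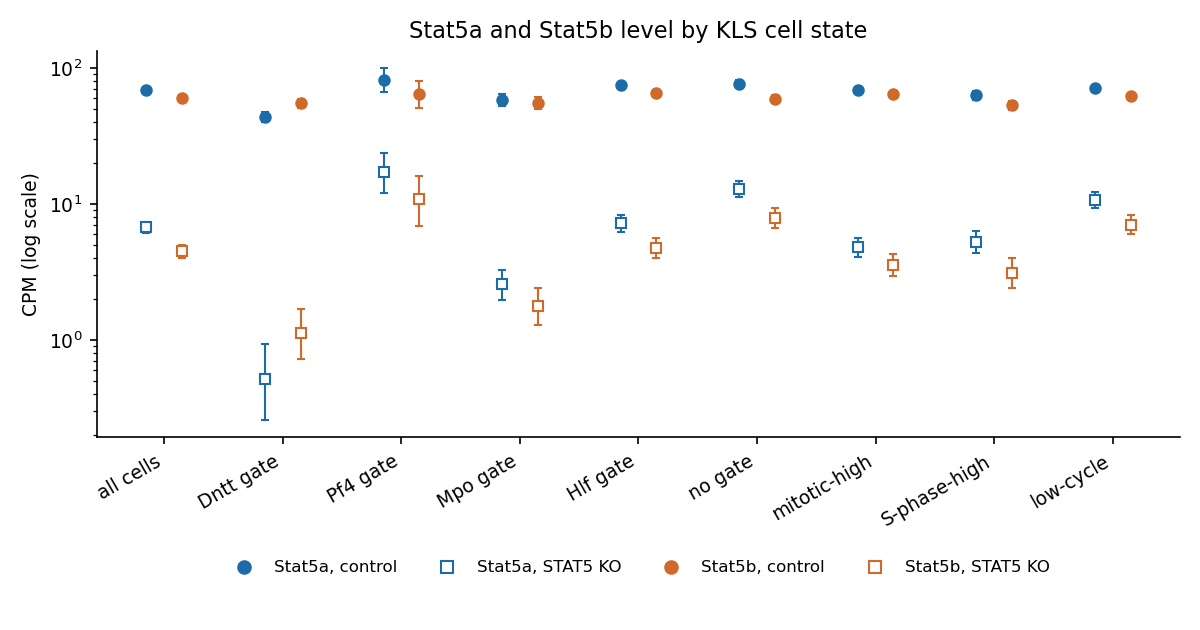
Level of Stat5a (blue) and Stat5b (orange) in CPM, on a log axis, in each lineage gate and cell cycle state of KLS cells. Points are sums over the cells of 1 library, filled for control and open for STAT5 KO, and bars are exact 95% Poisson intervals. Control Stat5a falls to 44.0 CPM in the Dntt gate, and STAT5 KO values span 0.521 to 17.2 CPM.

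Against no-gate cells, Stat5a was 1.74-fold lower in the Dntt gate, a log2 ratio of -0.80 (-0.95 to -0.64). Here 5.20% of the 10060 genes with at least 100 UMIs over both sets were at least 1.5-fold lower and 5.51% higher. The Stat5b ratio in the same cells was -0.11 (-0.26 to 0.05). In the Mpo gate the log2 ratio was -0.40 for Stat5a (-0.57 to -0.23) and -0.09 for Stat5b, and neither passed 1.5-fold, as 4.80% of genes did downward and 2.19% upward. Stat5a passed it with gates on the counts as deposited (-0.59), and Stat5b with higher gate minimums (-0.60). In the Pf4 gate the ratios were 0.10 for Stat5a (-0.20 to 0.40) and 0.12 for Stat5b (-0.23 to 0.46), where 6.12% of genes passed upward and 6.47% downward. In the Hlf gate they were -0.03 and 0.14 (0.01 to 0.27 for Stat5b), where 4.84% passed upward and 1.26% downward. Over other settings the Pf4 ratio ran from -0.23 to 0.14 for Stat5a and from -0.20 to 0.22 for Stat5b, and the Hlf ratio of Stat5a from -0.40 to 0.07, so these signs are not settled.

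The Dntt result did not rest on the no-gate cells alone. Stat5a in the Hlf gate was higher than in the Dntt gate by a log2 ratio of 0.76, and in the Pf4 gate by 0.90 (0.58 to 1.21). No-gate cells held more erythroid RNA, 1410 CPM over the erythroid list against 404 CPM in the Dntt gate, 325 in the Mpo gate, 796 in the Hlf gate and 1069 in the Pf4 gate; its part in the ratios was not tested. In cells that passed the Dntt gate and no other, the log2 ratio to no-gate cells was -0.86 for Stat5a and -0.23 for Stat5b (-0.41 to -0.05). In the 240 cells that passed the Dntt and Hlf gates only, Stat5a stood at 48.8 CPM and Stat5b at 62.1 CPM. Stat5a stood at 42.1 CPM in cells of the Dntt gate alone and at 80.6 CPM in cells of the Hlf gate alone. The 102 cells that passed only the Mpo and Hlf gates had 69.6 CPM of Stat5a and 55.9 CPM of Stat5b. Median depth was 15618 UMIs in the Dntt gate and 16382 in no-gate cells, and mitochondrial shares lay between 4.13% and 4.48% in all gates and no-gate cells.

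Thinned detection followed the same order for Stat5a. A Stat5a UMI was found in 16.2% of Dntt gate cells (13.6% to 19.0%), 19.2% of Mpo gate cells, 27.0% of Hlf gate cells, 30.5% of no-gate cells and 34.9% of Pf4 gate cells (23.3% to 48.0%). Stat5b was found in 23.1%, 23.2%, 24.1%, 19.8% and 19.0% of the same cells. The Stat5b shares do not follow the order of its CPM, and no order is read from them.

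The level of Stat5a was lower in cells with more Dntt RNA. Cells with 0, 1, 2 to 4, 5 to 9, 10 to 19 and 20 or more thinned Dntt UMIs held 79.7, 55.5, 47.3, 44.2, 40.2 and 32.9 CPM of Stat5a. The bins from 2 to 4 UMIs upward rest on 270, 136, 112 and 25 Stat5a UMIs. The last holds 46 cells, and no order is read among these bins. The gate minimum of 2 does not mark a sharp break, with 55.5 CPM just outside and 47.3 CPM just inside it. Stat5b stood at 63.7, 55.9, 57.0, 60.1, 48.4 and 46.0 CPM in the same bins, a narrower range.

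Mpo gave a different picture. From 0 to 20 or more Mpo UMIs, Stat5a stood at 75.8, 64.6, 65.2, 59.6, 62.4 and 41.2 CPM, and Stat5b at 60.9, 61.7, 62.7, 61.3, 45.5 and 32.7 CPM. Both genes were lowest in the 26 cells with the most Mpo. From 0 to 5 or more Hlf UMIs, Stat5a went from 62.1 to 79.5 CPM and Stat5b from 56.0 to 71.7 CPM, with values of 74.3, 74.3 and 75.1 CPM of Stat5a in the bins between. For Pf4, Stat5a stood at 67.8, 77.3, 87.7 and 71.0 CPM in cells with 0, 1, 2 to 4 and 5 or more UMIs; the last bin holds 16 cells.

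**Figure D2:**
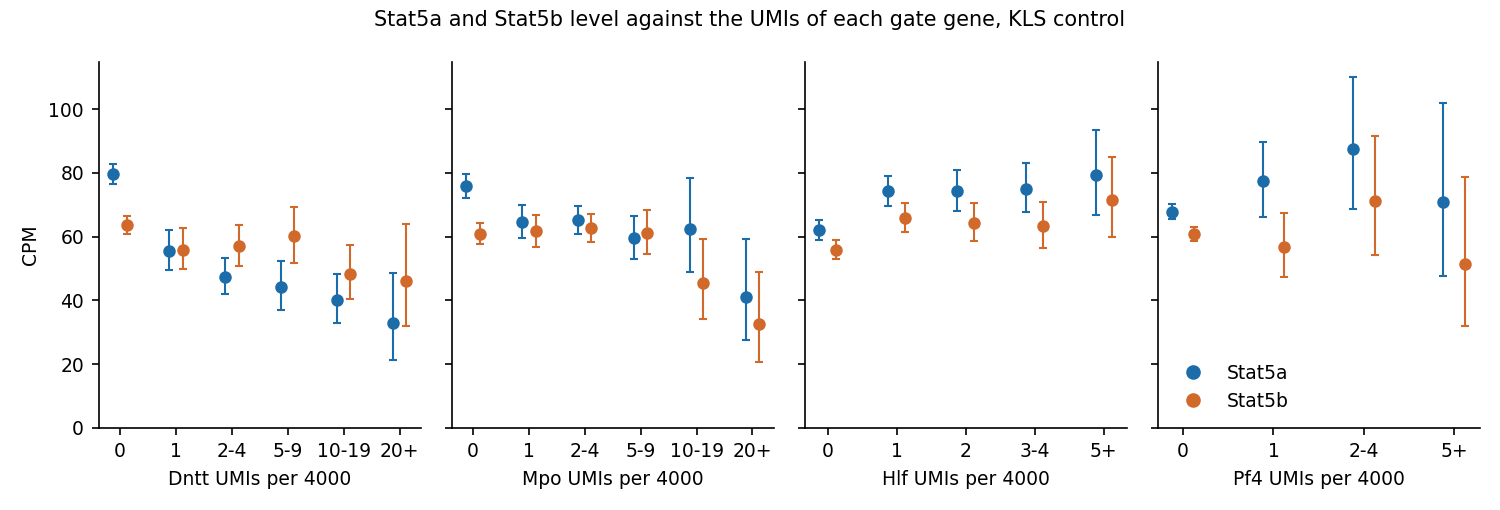
Level of Stat5a (blue) and Stat5b (orange) in CPM in KLS control cells grouped by the thinned UMIs of Dntt, Mpo, Hlf or Pf4. Bars are exact 95% Poisson intervals. Stat5a stands at 79.7 CPM in cells with 0 Dntt UMIs and at 32.9 CPM in the 46 cells with 20 or more.

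The balance of the pair, Stat5a as a share of all Stat5 UMIs, needs no scaling by depth and was lowest in the Dntt gate. It was 53.0% over all KLS control cells. In the Dntt gate it was 44.4% (41.6% to 47.2%), against 51.1% in the Mpo gate (47.5% to 54.6%), 53.3% in the Hlf gate (51.7% to 55.0%), 56.0% in the Pf4 gate (48.5% to 63.3%) and 56.3% in no-gate cells (53.9% to 58.7%). The Dntt gate is the 1 state whose interval lies wholly below those of the Mpo gate, the Hlf gate, the Pf4 gate and no-gate cells. The other intervals overlapped each other. The gap to the Mpo gate was narrow, and it closed in cells that passed 1 gate only. There Stat5a made up 45.4% (41.7% to 49.2%) in the Dntt gate and 51.2% (46.5% to 56.0%) in the Mpo gate. Along the Dntt bins the share was 55.6%, 49.8%, 45.4%, 42.4%, 45.3% and 41.7%, so most of the shift was present at 2 to 4 UMIs. Low-cycle and other cells of the Dntt gate alone gave 45.3% (38.6% to 52.1%) and 45.5% (40.9% to 50.1%).

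Cycling states were cut at the upper 25% of each list score. The 793 cells with at least 19 thinned UMIs of the mitosis list were called mitotic-high, the 708 others with at least 17 of the S-phase list S-phase-high, and the remaining 1560 low-cycle. Stat5a stood at 71.7 CPM in low-cycle, 69.2 CPM in mitotic-high and 63.0 CPM in S-phase-high cells, and Stat5b at 62.0, 64.7 and 53.4 CPM. Against low-cycle cells the mitotic-high log2 ratios were -0.05 for Stat5a and 0.06 for Stat5b, and the S-phase-high ratios -0.19 (-0.31 to -0.06) and -0.21 (-0.35 to -0.08). None of these reached 1.5-fold, which 9.21% of genes did downward and 6.06% upward in mitotic-high cells, and 10.1% and 7.27% in S-phase-high cells. The S-phase-high ratios of both genes were below 0, while the mitotic-high intervals included 0 for both (-0.16 to 0.06 for Stat5a, -0.05 to 0.18 for Stat5b). Other STATs moved more in S-phase-high cells, where Stat2 (-0.83), Stat3 (-0.89) and Stat4 (-0.69) were called lower. Median depth was 9575 UMIs in low-cycle, 16862.5 in S-phase-high and 21297 in mitotic-high cells.

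Within lineage states, the cycle was read in cells that passed exactly 1 gate or none. In cells of the Dntt gate alone, Stat5a stood at 46.2 CPM in low-cycle and 40.4 CPM in other cells. In no-gate cells it stood at 76.4 and 76.6 CPM, in cells of the Mpo gate alone at 56.6 and 56.6 CPM, and in the 16 and 19 cells of the Pf4 gate alone at 94.8 and 78.7 CPM (low-cycle cells first). Stat5b in cells of the Mpo gate alone was at 42.4 CPM in the 59 low-cycle cells and at 58.7 CPM in the other 116, a log2 ratio of 0.47 (0.0064 to 0.95). It rests on 51 and 164 UMIs. The remaining Stat5b ratios were -0.20 (Dntt gate alone), -0.11 (Pf4), 0.02 (Hlf) and 0.12 (no gate), and their intervals all included 0.

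Detection rose with depth. The KLS control cells were put into 5 depth classes of 617 cells, with median UMIs of 7055, 10130, 15136, 19862 and 27544. A Stat5a UMI was present in 36.6%, 52.8%, 59.3%, 68.1% and 82.7% of cells, where 1 constant level would give 37.2%, 50.2%, 64.2%, 74.2% and 86.2%. In the 3 deepest classes the Stat5a share was below that value, with intervals of 55.3% to 63.2%, 64.2% to 71.7% and 79.4% to 85.6%. For Stat5b the shares were 36.6%, 45.4%, 57.1%, 67.3% and 84.0%, against 33.8%, 46.1%, 59.8%, 70.0% and 82.9%. Both genes were seen together in 14.3% of the shallowest and 70.3% of the deepest class. CPM did not rise with depth, at 71.2, 78.0, 64.4, 63.9 and 69.8 for Stat5a and 69.1, 62.6, 55.9, 58.8 and 62.1 for Stat5b.

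**Figure D3:**
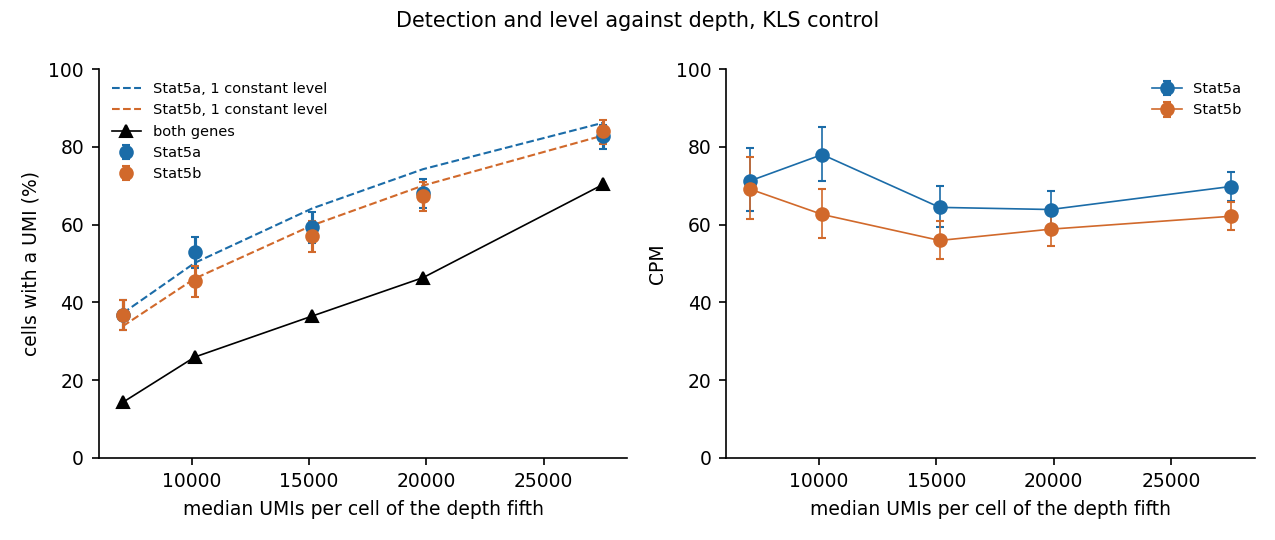
Left, percent of KLS control cells with a UMI of Stat5a (blue), Stat5b (orange) or both (black triangles) against the median UMIs of each depth class, with dashed lines for 1 constant level. Right, CPM in the same classes. Bars are exact 95% intervals, and detection rises from 36.6% to over 80% while CPM stays between 55.9 and 78.0.

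Joint detection in control cells was close to what independent detection gives. At 4000 UMIs, 194 cells held both genes where 176.4 were expected from the 2 single shares, a ratio of 1.10 (0.95 to 1.27). The ratio was 1.07 in the Dntt gate, 1.43 in the Pf4 gate, 0.959 in the Mpo gate, 1.07 in the Hlf gate and 1.05 in no-gate cells, and 1.35 (0.97 to 1.83) in S-phase-high cells. The 18 pairs of Stat5a or Stat5b with other STAT or Janus kinase genes gave 0.751 to 1.17, with a median of 1.02. The lowest was Stat5b with Jak3 (0.751), and the highest Stat5b with Stat2 (1.17). Of cells with Stat5a, 24.97% also held Stat5b, and of cells with Stat5b, 27.9% held Stat5a.

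**Figure D4:**
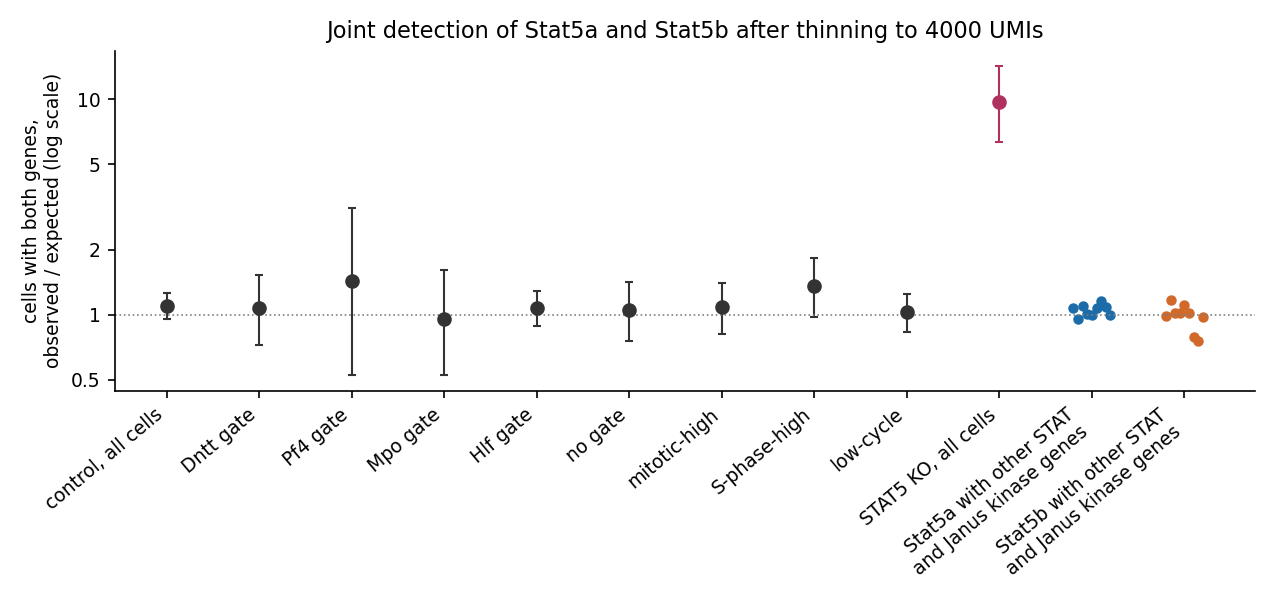
Cells with both genes, observed over expected, after thinning to 4000 UMIs, on a log axis. Black points are KLS control states with intervals, the red point is KLS STAT5 KO, and small points are the 18 pairs with other STAT and Janus kinase genes. Control states lie between 0.959 and 1.43, and the knockout at 9.70. The ratio can rise higher where fewer cells hold a UMI, as in the knockout.

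Splitting cells by which gene was seen restates the detection by gate, since both come from the same thinned counts. The Dntt gate held 15.6% of the 583 cells with only Stat5a, 28.5% of the 501 with only Stat5b, 15.5% of the 194 with both and 27.2% of the 1783 with neither. Between cells with only Stat5a and cells with only Stat5b, 2 pathway genes were called higher in the former, Jak2 (log2 ratio 0.80) and Jak3 (0.78), and 1 lower, Cebpa (-0.60), of 46 with enough UMIs, where 1.12% of all genes were called higher and 0.880% lower. Between cells with both and cells with neither, Pim2 and Gfi1b were called higher and Ncoa1 lower, where 2.36% of all genes were called higher and 4.37% lower.

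The knockout library gives the level at which reads still appear where the floxed genes were to be removed. In KLS STAT5 KO, Stat5a stood at 6.74 CPM, 9.84% of control (8.95% to 10.8%), and Stat5b at 4.49 CPM, 7.38% of control (6.58% to 8.25%). Of all genes, 5.15% were called lower and 2.05% higher in that comparison. The extent of the floxed segment is not given in the labels, so reads from a remaining 3′ part of the genes cannot be told apart from reads of intact copies. The residual was uneven across states. Stat5a stood at 0.521 CPM in the Dntt gate, 2.57 in the Mpo gate, 7.21 in the Hlf gate, 12.9 in no-gate cells and 17.2 in the Pf4 gate, which is 1.18%, 4.42%, 9.64%, 16.9% and 20.9% of control. Stat5b stood at 1.14, 1.78, 4.79, 7.95 and 10.8 CPM, or 2.06%, 3.20%, 7.33%, 13.4% and 16.8% of control. Low-cycle cells kept 14.9% of the control level of Stat5a and 11.4% of Stat5b. The control level thus stood above the residual of the same state in all gates. Among these states the gap was narrowest in the Pf4 gate, but its intervals overlapped those of no-gate cells. For Stat5a they were 14.0% to 30.6% and 14.5% to 19.6%, and for Stat5b 10.2% to 26.7% and 11.0% to 16.1%.

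The residual was concentrated in few cells, and within the knockout the 2 genes came together more often than independent detection gives. Of 6726 KLS STAT5 KO cells, 454 (6.75%) had a Stat5 UMI, and the 106 cells with 3 or more held 45.1% of the 858 UMIs. Both genes were seen in 26 thinned cells where 2.68 were expected, a ratio of 9.70 (6.34 to 14.2). The ratio can rise higher where fewer cells hold a UMI, so it is not set against the 1.10 of control. Of KLS STAT5 KO cells with Stat5a, 17.3% also held Stat5b, against 24.97% in control. Of those with Stat5b, 22.6% held Stat5a, against 27.9% in control. Stat5a made up 60.0% (56.7% to 63.3%) of the 858 UMIs.

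In the stromal sort both genes were present, with far fewer counts, and Stat5a was lower than in blood progenitors. In the 460 stromal cells of MSC control, Stat5a stood at 43.3 CPM (33.8 to 54.7, 70 UMIs) and Stat5b at 54.5 CPM (43.7 to 67.1, 88 UMIs). Against KLS control the log2 ratio was -0.66 for Stat5a (-1.02 to -0.32), past 1.5-fold, and -0.16 for Stat5b (-0.48 to 0.15). Of all genes 43.7% were at least 1.5-fold lower and 25.6% higher in that comparison, so a fall of this size is common there. At 1000 UMIs per cell, a Stat5a UMI was found in 6.07% of KLS control, 3.87% of MSC control, 4.92% of MSC STAT5 KO and 0.535% of KLS STAT5 KO cells. For Stat5b the shares were 6.37%, 5.81%, 6.82% and 0.476%. Leukocyte RNA was low in the stromal cells, with the 4 pan-leukocyte genes at 40.2 CPM in sum against 1300 CPM in KLS control and Ptprc at 0 by the definition of the class.

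Within the stromal cells the pair was uneven. Among the cells that reached 1000 UMIs, those with 10 or more thinned UMIs of Cxcl12, a chemokine that marks the perivascular stroma around stem cells, were called Cxcl12-high. In MSC control the 97 Cxcl12-high cells held 111 CPM of Stat5a (80.8 to 149) and 104 CPM of Stat5b (74.3 to 140.5). The 309 other cells of the stromal sort held 22.3 CPM (14.4 to 32.9) and 41.0 CPM (30.04 to 54.7). The difference was 4.98-fold for Stat5a, a log2 ratio of 2.32 (1.58 to 3.09), and 2.52-fold for Stat5b, 1.34 (0.69 to 1.98). In this comparison 24.4% of genes with at least 50 UMIs were at least 1.5-fold higher and 23.3% lower, so many genes moved with the pair.

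MSC STAT5 KO showed the same order in a second library. Its 48 Cxcl12-high cells held 182 CPM of Stat5a and 108 CPM of Stat5b, and its 189 other cells of the stromal sort 12.7 and 47.7 CPM. The log2 ratios were 3.84 (2.69 to 5.16) and 1.18 (0.27 to 2.05). They rest on 32 and 8 UMIs of Stat5a and on 19 and 30 of Stat5b (Cxcl12-high cells first). Each gene is below the minimum of 50 UMIs over both sets, so neither is called here. Among the genes that reached this minimum, 24.6% were called higher and 28.5% lower. Over all stromal cells, STAT5 KO against control gave 0.46 for Stat5a (-0.05 to 0.96) and -0.14 for Stat5b (-0.65 to 0.37), and neither was called, as 5.20% of genes were upward and 7.84% downward. By class, the Stat5a ratio was 0.71 in Cxcl12-high cells (0.0035 to 1.40, from 32 and 44 UMIs), past 1.5-fold, and -0.81 in the other stromal cells (-2.17 to 0.38). The summed chondrocyte list differed between the genotypes as well (3259 CPM in control stromal cells, 18838 CPM in those of the STAT5 KO). Col2a1-high cells held 23 of the 66 Stat5a UMIs of the STAT5 KO and 1 of the 70 of the control stromal cells; the part of this in the pooled ratio was not tested. In MSC control, Stat5a made up 51.8% of Stat5 UMIs in Cxcl12-high cells (40.7% to 62.7%) and 35.2% in other cells (24.2% to 47.5%). These intervals overlapped. In MSC STAT5 KO the shares were 62.7% (48.1% to 75.9%) and 21.1% (9.55% to 37.3%), whose intervals did not meet. In 29 Col2a1-high cells of MSC STAT5 KO, marked by cartilage collagen, Stat5a stood at 74.2 CPM and Stat5b at 22.6 CPM; MSC control had 8 such cells with 1 UMI of each gene.

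The markers of these stromal states were read beside the result. Ly6a, the Sca-1 gene used in the sort, stood at 7.58 CPM (3 UMIs) in Cxcl12-high and 933 CPM in other cells of MSC control, so the RNA of the Cxcl12-high cells goes against a Sca-1 positive sort. Lepr, the leptin receptor, stood at 1743 and 121 CPM, and Pdgfra at 349 and 318 CPM. Median depth was 4004 UMIs in Cxcl12-high and 3475 in the other cells. In MSC STAT5 KO, Ly6a stood at 11.3 CPM in Cxcl12-high and 761 CPM in the other cells. In MSC control the pan-leukocyte genes summed to 5.05 CPM (2 UMIs) in Cxcl12-high cells, with Ptprc, Cd52 and Laptm5 at 0, and to 57.1 CPM in the others. In MSC STAT5 KO the sums were 5.67 CPM (1 UMI) and 79.5 CPM (50 UMIs).

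**Figure D5:**
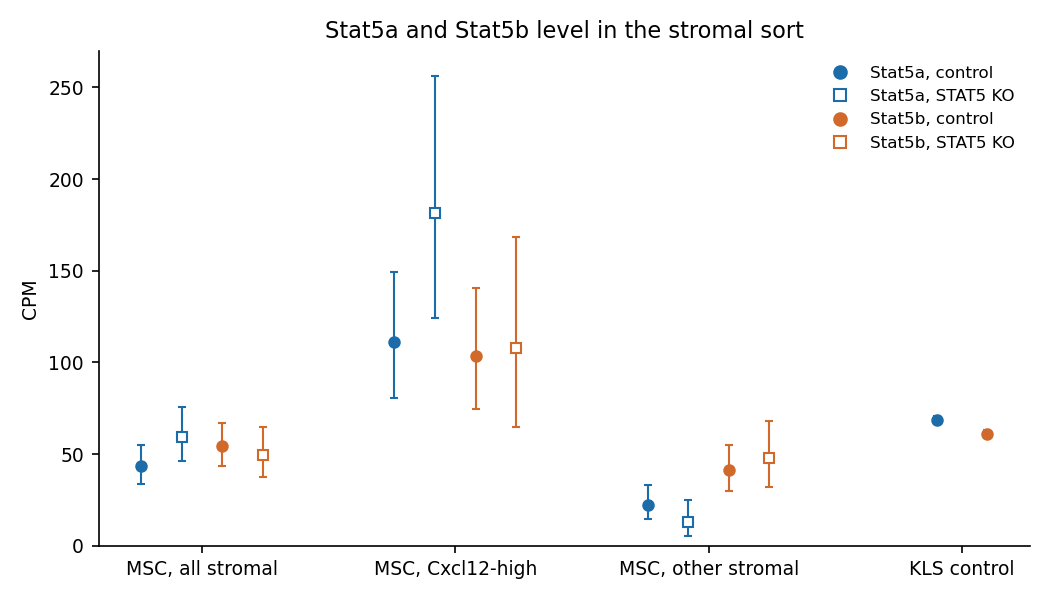
Level of Stat5a (blue) and Stat5b (orange) in CPM in all stromal cells, Cxcl12-high cells and other stromal cells of MSC control (filled) and MSC STAT5 KO (open), with KLS control for scale. Bars are exact 95% Poisson intervals, and Stat5a in Cxcl12-high cells (111 and 182 CPM) stands above Stat5a in the other stromal cells (22.3 and 12.7 CPM).

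The rest of the pathway, 72 genes in lists of receptors, kinases, STATs, inhibitors, co-factors and reported targets, was read in the same gates. In the Dntt gate, 5 of the 64 genes with enough UMIs were called higher and 4 lower, with a median log2 ratio of 0.01 against -0.04 over all genes tested. These counts are near the shares over all genes (5.51% and 5.20%). Of 13 receptors, 3 were called higher and 2 lower. Flt3, the receptor of an early lymphoid growth factor, stood at 338 CPM in the Dntt gate and 104 CPM in no-gate cells, and Il7r, the interleukin 7 receptor, at 47.9 and 3.58 CPM. Epor, the erythropoietin receptor, stood at 1.05 and 13.3 CPM. None of the 4 Janus kinases and none of the 5 other STATs was called, so Stat5a was the 1 STAT gene past 1.5-fold in that gate. Jak2 stood at 20.9 and 30.3 CPM (log2 ratio -0.54), and Stat3 at 76.3 and 86.3 CPM. Of 17 inhibitors and phosphatases, Socs2 was called lower, at 4.54 and 7.83 CPM. Of 17 reported targets, 2 were called higher, Cdkn1a (44.8 and 22.6 CPM) and Gfi1 (22.7 and 13.1 CPM), and 1 lower, Gfi1b (18.6 and 45.1 CPM). Pim1 stood at 243 and 241 CPM. Of the genes named here, Flt3 and Il7r are also in the lymphoid-primed marker list, Epor in the erythroid list and Gfi1 in the myeloid list. Their differences therefore restate the markers of these cell states in part.

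In the Pf4 gate, 12 of 62 pathway genes were called higher and 12 lower, where 6.12% of all genes were higher and 6.47% lower. Jak2 stood at 50.3 CPM, above the no-gate value of 30.3 CPM, while Jak3 was called lower (20.0 and 30.7 CPM) and Stat2 higher (22.4 and 14.7 CPM). Socs2 stood at 17.6 CPM, and Ccnd1, which encodes cyclin D1, at 56.7 against 19.5 CPM. Pim1 was lower at 131 CPM, as was Csf2rb, the shared receptor chain for GM-CSF and interleukin 3, at 10.4 against 20.5 CPM. In the Mpo gate 7 of 62 were called higher and 6 lower, against 2.19% and 4.80% of all genes. Csf2rb was higher at 31.9 CPM, while Cish (6.12 against 11.9 CPM) and Socs2 (0.854 CPM) were lower. In the Hlf gate 2 of 65 were called higher, Cish at 18.1 CPM and Gfi1, and 1 lower, Epor, which is near the shares over all genes (4.84% and 1.26%). Cish and Socs2 were also called lower in both cycling states, Cish at 10.0 CPM in mitotic-high and 7.92 CPM in S-phase-high cells against 21.2 CPM in low-cycle cells. Stat5a and Stat5b themselves were called in no cycling state.

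In Cxcl12-high stromal cells of MSC control, 21 of 35 measured pathway genes were called higher and 2 lower, with a median log2 ratio of 0.88 against 0.02 over all genes tested, of which 24.4% were called higher and 23.3% lower. Jak2 stood at 73.3 CPM there and 30.3 CPM in the other stromal cells, and Ghr, the growth hormone receptor, at 331 and 85.6 CPM. Socs2 stood at 109 and 53.5 CPM, and Pim1 at 531 and 164 CPM. In MSC STAT5 KO 11 of 23 were called higher and 2 lower, with a median of 0.29 against -0.04, where 24.6% of all genes were higher and 28.5% lower.

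Genes with the pattern most like each member were sought over 10 control KLS states, the cells of exactly 1 gate or none, each split by cycle, among 8268 genes with at least 500 UMIs. The states come from 1 library and differ in depth, and the correlations are descriptions. For Stat5a the highest Pearson r of log2(CPM + 1) were those of Cavin1 (0.984), Scarf1 (0.983), Tfr2 (0.981) and Emid1 (0.980). For Stat5b they were Ppp1r13b (0.945), Afdn (0.915), Spsb2 (0.911), Tnfrsf18 (0.890) and Prr14l (0.888). The range differed widely. Cavin1, a caveolar coat gene, went from 0.939 CPM in cycling cells of the Dntt gate to 61.8 CPM in low-cycle cells of the Pf4 gate, while Stat5a went from 40.4 to 94.8 CPM. Cavin1 also lies 71564 bases beyond the end of Stat5a, with Stat3 between them. At r of 0.9 or more, 83 genes matched Stat5a and 3 matched Stat5b. The 2 members correlated with each other at 0.554, which ranked Stat5b at 1422 of the genes like Stat5a.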

How the data were processed

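Libraries were made with 10x Genomics 3′ chemistry, and the deposited matrices hold counts, whole numbers of UMIs per gene and cell. The authors used Cell Ranger with GRCm38/mm10, per the submitters' processing notes, and the software version in the file headers is 3.1.0. The members and all lists were chosen with earlier results of these data known.

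Kept cells had 200 or more genes detected and no more than 10% of UMIs from mitochondrial genes. Barcodes were ranked by the Scrublet doublet score in scanpy 1.11.5. The highest were marked as doublets, their number set by an assumed rate of 0.8% per 1000 barcodes and not by Scrublet's own calls. This marked 112, 451, 4 and 1 barcodes in KLS control, KLS STAT5 KO, MSC control and MSC STAT5 KO. They were left out, as were barcodes with more UMIs in another library. CPM is the sum of a gene's UMIs over the cells of a state per 1000000 UMIs of those cells, from the counts as deposited. Shares and gates used each cell thinned to 4000 UMIs (KLS) or 1000 UMIs (MSC), which left out 24, 289, 143 and 98 shallower cells. Total kept counts were 51139373, 76389354, 1752793 and 1199251 UMIs. Sums have exact Poisson intervals, shares Clopper-Pearson intervals and ratios exact conditional binomial intervals. A gene is called at 1.5-fold with at least 100 UMIs over both sets (50 within MSC, a minimum chosen after seeing the data). In the pathway, always-named genes included Flt3, Il7r, Kit, Csf2rb, Csf2rb2, Stat3, Jak2, Cish, Socs2 and Pim1, and others by the 3 highest or lowest ratios of a list in a gate; Ghr and the stromal markers were named after their values were seen. A few genes that these rules name are not reported here. Positions and transcripts come from GENCODE M21. Calculations used Python 3.11.15, numpy 2.4.6 and scipy 1.17.1 and were tested on simulated data.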

Additional observations from a re-analysis of the deposited data

Results flagged for a closer look

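The knockout difference of Stat5a went opposite ways in the 2 sorts. In KLS cells Stat5a was lower in STAT5 KO, at 9.84% of control. In the stromal cells of the MSC sort it was higher, at 59.5 CPM in STAT5 KO and 43.3 CPM in control, a log2 ratio of 0.46 (-0.05 to 0.96), with 1 library per group. The interval includes 0, and the difference between the sorts was not tested. By class the ratio was 0.71 in Cxcl12-high and -0.81 in other stromal cells, and Col2a1-high cells held 23 of the 66 Stat5a UMIs in STAT5 KO and 1 of 70 in control. Stat5b in the same stromal cells stood at 49.5 and 54.5 CPM.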

How the results depend on the processing

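No paired analysis was possible because each group holds 1 library, and for the same reason no library could be left out in turn. Of 220 alternative values of the main comparisons, 204 stayed within the main value's counting interval, 15 moved outside it, and in 1 a difference whose interval excluded 0 changed sign. In all, 20 lay on the other side of no difference: 7 for Stat5a and 5 for Stat5b in the Pf4 gate, 3 for Stat5a and 1 for Stat5b in the Hlf gate, 1 for Stat5b in the Dntt and 1 in the Mpo gate, and 1 for each gene in mitotic-high cells. With a stricter filter on cells (1000 genes, 5% mitochondrial UMIs), the log2 ratio to no-gate cells was -0.98 for Stat5a in the Dntt gate and -0.19 in the Hlf gate, and the Stat5b ratio in the Hlf gate reversed to -0.0075. With gates on counts as deposited, it was -0.23 (Pf4), -0.59 (Mpo) and -0.40 (Hlf) for Stat5a and 0.074 (Dntt) and 0.13 (Mpo) for Stat5b. The Stat5a ratio in the Hlf gate was also -0.17 with lower gate minimums, -0.28 after thinning to 8000 UMIs and -0.19 with another random draw. The Stat5b ratio in the Mpo gate was -0.60 with higher minimums and -0.30 after thinning to 2000 UMIs. Without mitochondrial, ribosomal and hemoglobin genes, the stromal to KLS ratio was -1.06 for Stat5a and -0.55 for Stat5b; it was -0.42 and -0.00 at the other end of the range. As a mean of single-cell CPM, Stat5a in KLS STAT5 KO was 11.2% of control. The cause of these shifts was not tested. The Stat5a ratio in the Dntt gate ranged from -0.98 to -0.77, and joint detection from 1.01 to 1.11 times expected. In Cxcl12-high cells the Stat5a ratio ranged from 1.89 to 2.54 in control and 2.95 to 4.06 in STAT5 KO. With at least 2000 UMIs per gene, 1 of the 5 genes most like Stat5a and 0 of those most like Stat5b remained. Depth limits the Pf4 gate (63 cells) and the stromal states; 9 thinned Cxcl12-high cells of MSC control held a Stat5b UMI.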
